A study of Homo sapiens with 4 samples.

Results

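Enzymes that make, recycle and clear the building blocks of DNA were examined in DU154 (the labels' spelling), a human prostate cancer line. The set holds 10 genes of the 19778 named on the arrays: CDA, RRM1, RRM2, RRM2B, TK1, TYMS, DCK, DUT, DTYMK and UCK2. All probes that the platform annotation gives to these symbols were taken, 15 in all. The set was chosen by measured values, since CDA was higher and RRM2 lower in cells labelled mH2A1.2_KO than in wild type cells. The values of that comparison are therefore given as a description, with no p-value for a member.

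The mH2A1.2_KO group is 2 arrays of DU154 cells depleted of mH2A1.2, which is 1 of the splice products of the gene for the histone variant macroH2A1, and the wild type group is 2 arrays of DU154 cells without the depletion. No treatment or time is given for either group, and the sources used here do not give the method of depletion or say whether the cells are 1 clone. Separate cultures are not stated for arrays of a group, so errors and p-values cover array-to-array spread alone, which may be technical. The series title names osteoclast formation driven by prostate cancer cells, and the arrays compare expression with and without the splice form.

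Cells obtain deoxynucleotides (dNTPs) by reduction and by salvage. Ribonucleotide reductase, a large RRM1 subunit with a small RRM2 or RRM2B subunit, reduces ribonucleotides, and salvage kinases such as TK1 and DCK phosphorylate nucleosides taken up or released by breakdown. Thymidylate, the nucleotide particular to DNA, comes from TYMS or from TK1 and is phosphorylated onward by DTYMK, while DUT destroys dUTP so that uracil stays out of DNA. RRM2, TK1 and TYMS are known to be made mostly in S phase, and CDA removes the amino group of cytidine and deoxycytidine, also of drugs such as gemcitabine.

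The 250 bases before the start sites of CDA and RRM2 are shown because these members had the largest differences, in opposite directions (RefSeq, GRCh38.p14, plus strand for both). For CDA the window is chr1:20588847-20589096, and for RRM2, at the downstream of its 2 listed start sites, chr2:10122489-10122738. Capitals mark matches to CCAAT, the box bound by the factor NF-Y.
CDA: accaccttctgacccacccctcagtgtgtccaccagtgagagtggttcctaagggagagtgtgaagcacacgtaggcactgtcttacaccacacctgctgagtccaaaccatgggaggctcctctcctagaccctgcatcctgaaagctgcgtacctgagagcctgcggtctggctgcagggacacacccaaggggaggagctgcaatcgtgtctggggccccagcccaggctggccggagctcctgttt
RRM2: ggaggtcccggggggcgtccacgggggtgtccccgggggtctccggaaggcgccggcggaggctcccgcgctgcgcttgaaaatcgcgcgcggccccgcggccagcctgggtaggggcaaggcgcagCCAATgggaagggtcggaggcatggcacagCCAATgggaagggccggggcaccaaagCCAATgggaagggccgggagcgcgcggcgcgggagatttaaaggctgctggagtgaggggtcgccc
The RRM2 window shown held 3 CCAAT matches, starting 123, 93 and 66 bases before the start site, and the CDA window held 0. At least 1 match on either strand was present in 32% of 35114 promoters of this length, and 3 or more in 2.93%. GGGCGG (42.6% of promoters), TATAAA (10.7%) and the words TTTCCCGC, TTTGGCGC, TTTCGCGC and TTTGCCGC read by E2F factors (2.79% for any of the 4) were also searched on both strands, with 0 matches in either window and 0 overlaps between motifs. The window before the upstream RRM2 start site, not shown, held 1 CCAAT and 1 GGGCGG match. Promoters were listed for 9 of the 10 genes. CCAAT was also found before RRM1, DTYMK and UCK2 and before 1 of the 2 TK1 start sites, while an E2F word was found before TYMS and before 1 of the 4 DUT start sites. These matches are descriptions of the letters and were not tied to any measured difference.

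The 2 deposited tables disagree on the labels of 2 of the 4 arrays. The header of the raw table exchanges mH2A1.2_KO replicate 1 and wild type replicate 2 relative to the normalized table, so every direction and ranking below holds for the labels of the normalized table. mH2A1.2_KO replicate 2 and wild type replicate 1 carry the same label in both. The labels were then checked on MACROH2A1, the gene of the depleted variant. Its brightest probe measured 11.97 and 11.83 in mH2A1.2_KO and 13.02 and 12.91 in wild type (normalized log2 intensity, the scale of every level below). One other detected probe was also lower, by -1.02 ± 0.17 (moderated standard error, SE, from limma). It measured 9.41 and 9.26 in mH2A1.2_KO and 10.25 and 10.46 in wild type. The remaining detected probe was 0.62 ± 0.24 higher, at 9.49 and 9.03 in mH2A1.2_KO and 8.86 and 8.41 in wild type. At each detected probe the groups did not overlap under the normalized table's labels. The gene's own probes differ in direction, and none is known here to read mH2A1.2 alone. The brightest probe differed by -1.19 between the 2 arrays labelled alike and by -0.12 under the raw header's labels. Epithelial markers KRT8, KRT18, KRT19, EPCAM and CDH1 were all detected. Read by its brightest detected probe, each measured higher in mH2A1.2_KO, with a median difference of 0.65. Groups did not overlap for 4 of the 5, while 18% of named genes lay higher without overlap. The other KRT18 probe measured lower, by -0.12. KRT8, at 1.68 ± 0.18, differed more than any member, and KRT19 measured 1.24 ± 0.16. Under the raw header's labels the median was -0.04, and the part of these markers in the member differences was not tested. The 4 prostate luminal markers on the table, KLK2, KLK3, TMPRSS2 and FOLH1, were not above background on 2 or more arrays. PTPRC and CD3E of leukocytes were likewise not detected, while CD68 (0.36 higher) and CD14 (0.28 higher, with overlap) were. The other CD14 probe measured -0.05. Of the fibroblast and endothelial markers COL1A1 was detected, at -0.05 ± 0.19, and COL1A2, DCN, PECAM1 and VWF were not. The detected share of probes was 35.8% and 35.9% in mH2A1.2_KO and 38.9% and 35.4% in wild type, and the number of arrays limits the precision.

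Of the 15 member probes, 12 were above background on at least 2 arrays (detection p under 0.01) and were tested, covering all 10 genes. The second probes of RRM2B, DCK and DTYMK were above background on 0 arrays, and the levels in the text are of the other probes. limma called 0 of 16950 tested probes (0% at an adjusted p under 0.05), among them 0 of the 12 member probes, and 1282 probes (7.56%) had an unadjusted p under 0.05. Of the 12, 5 measured higher and 7 lower in mH2A1.2_KO, beside 47.9% higher and 52.1% lower over all tested probes. Arrays of the groups did not overlap at 5 of the 12 member probes, 3 higher and 2 lower in mH2A1.2_KO. Over all tested probes 35.7% did not overlap, 17.1% higher and 18.5% lower. Because this comparison chose the set, nothing is read from these counts. The median difference of the 12 probes was -0.06, beside -0.01 over all tested probes.

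**Figure D1:**
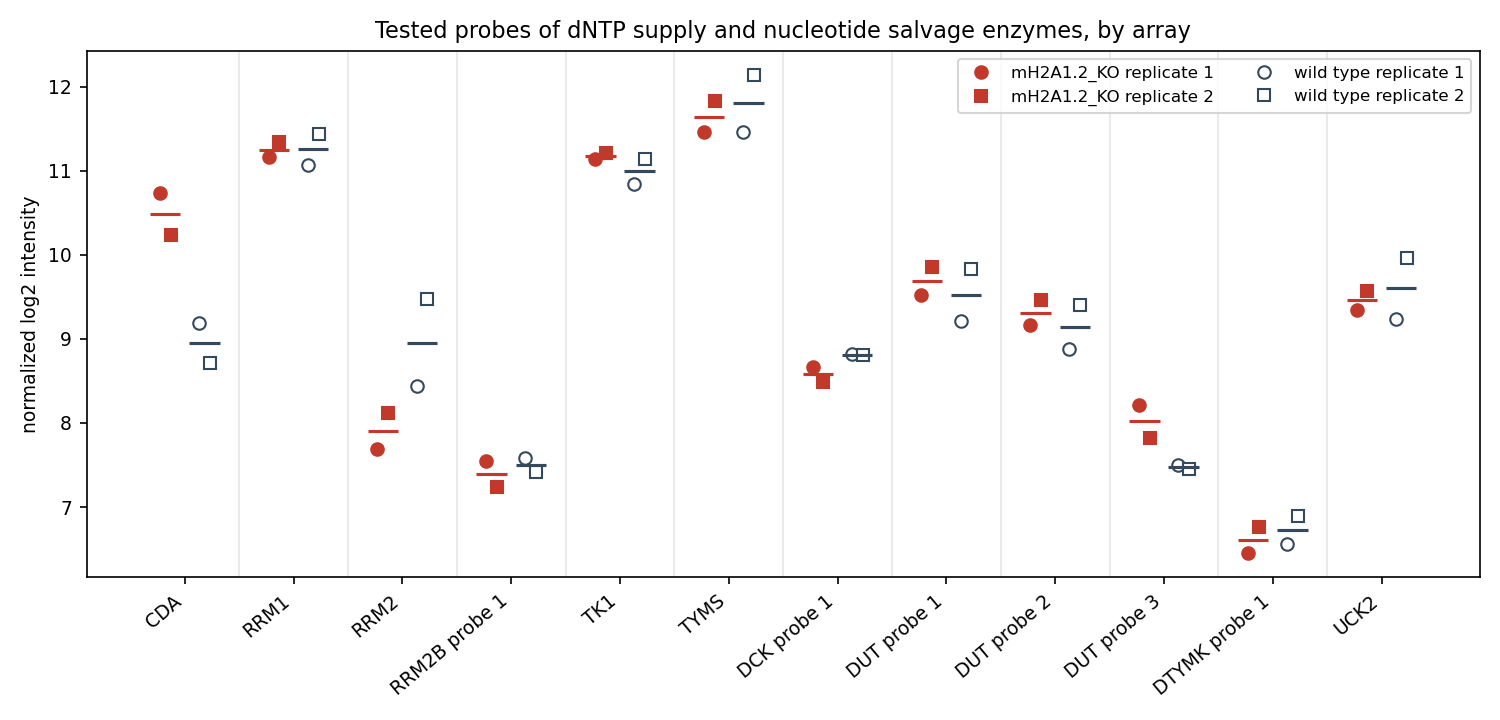
Normalized log2 intensity of the 12 tested member probes on each array, with filled red symbols for mH2A1.2_KO, open dark symbols for wild type, circles for replicate 1, squares for replicate 2 and bars for group means. CDA and RRM2 have the widest separation between groups, and levels of different probes are not comparable.

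CDA, the deaminase of cytidine and deoxycytidine, was the member that differed most. Its probe measured 10.73 and 10.23 in mH2A1.2_KO and 9.19 and 8.71 in wild type. Both mH2A1.2_KO arrays lay above both wild type arrays, the nearest by 1.04, while the mH2A1.2_KO arrays stood 0.50 apart and the wild type arrays 0.48. The difference was 1.53 ± 0.25 (SE, 2 arrays per group) or 2.89-fold, larger in size than that of 99.9% of tested probes, and a difference of at least 2-fold upward was measured at 0.549% of them. Raw signals were 1689 and 1328 in mH2A1.2_KO and 654 and 453 in wild type on arrays whose medians were 140.6 and 142.4 in mH2A1.2_KO and 141.1 and 139.8 in wild type. Between same-numbered arrays the difference was 1.54 and 1.52. Leaving out any 1 array gave 1.28 to 1.78. The 2 arrays that both tables label alike differed by 1.04, and under the raw header's labels the difference was -0.49.

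Of the ribonucleotide reductase subunits, RRM2 had the largest difference under the normalized table's labels. RRM2, the small subunit of dividing cells, measured 7.69 and 8.12 in mH2A1.2_KO and 8.43 and 9.47 in wild type. Both mH2A1.2_KO arrays lay below both wild type arrays, but the nearest arrays of the groups were 0.31 apart and the wild type arrays 1.04 apart. The difference was -1.05 ± 0.35 or 2.07-fold, as large as the gap between the wild type arrays, and 0.224% of tested probes were at least 2-fold lower. Without wild type replicate 2 the difference was -0.53, and without wild type replicate 1 it was -1.56. Raw signals were 263 and 338 in mH2A1.2_KO and 422 and 745 in wild type, not far above background, and the difference was -1.28 once background was modelled with limma's neqc. The 2 arrays labelled alike in both tables differed by -0.31, beside -0.35 for RRM2B and 0.27 for RRM1 on the same arrays, and under the raw header's labels the difference was 0.73.

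RRM1, the large catalytic subunit, measured 11.16 and 11.34 in mH2A1.2_KO and 11.07 and 11.44 in wild type. The mH2A1.2_KO arrays lay inside the wild type range, and the difference was -0.0035 ± 0.19. RRM2B, the small subunit that p53 induces and that serves cells outside S phase, measured 7.55 and 7.24 in mH2A1.2_KO and 7.58 and 7.41 in wild type. Its groups overlapped, with a difference of -0.11 ± 0.18. Whether the RRM2 difference exceeds that of RRM1 or RRM2B was not tested.

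The enzymes of thymidylate supply had differences smaller than, or about as large as, their SE. TYMS, which methylates dUMP to dTMP, measured 11.46 and 11.82 in mH2A1.2_KO and 11.47 and 12.14 in wild type, with a difference of -0.16 ± 0.26. The lower arrays of the 2 groups were nearly equal, and the groups overlapped. TK1, the cytosolic thymidine kinase, measured 11.14 and 11.21 in mH2A1.2_KO and 10.85 and 11.14 in wild type. Its groups touched without overlapping, and the difference of 0.18 ± 0.17 was about its SE. DTYMK, which makes dTDP from dTMP, measured 6.45 and 6.76 in mH2A1.2_KO and 6.56 and 6.90 in wild type. It was above background on 1 array of each group, the replicate 2 array in both, so its difference of -0.12 ± 0.20 rests on signals at the edge of detection.

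DUT, which hydrolyses dUTP to dUMP, was read by 3 detected probes that differed among themselves. The brightest measured 9.53 and 9.85 in mH2A1.2_KO and 9.21 and 9.83 in wild type, a difference of 0.17 ± 0.25. The second measured 9.16 and 9.46 in mH2A1.2_KO and 8.88 and 9.41 in wild type, also 0.17 higher (SE 0.23). The dimmest measured 8.22 and 7.82 in mH2A1.2_KO and 7.50 and 7.45 in wild type. Its groups did not overlap, with a difference of 0.54 ± 0.19 or 1.45-fold, and in each group its replicate 1 array was the higher, opposite to the other pair of probes. The difference of the dimmest probe was 0.84 with neqc and -0.22 under the raw header's labels. The annotation gives the brightest and dimmest probes to the same transcript and the other to a different one, and does not place the probes within them.

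The salvage kinases for cytidine and uridine compounds had differences of at most 1.18-fold. DCK, which phosphorylates deoxycytidine and is the counterpart of CDA in the fate of that nucleoside, measured 8.67 and 8.48 in mH2A1.2_KO and 8.82 and 8.80 in wild type. Both mH2A1.2_KO arrays were lower, by -0.23 ± 0.16 or 1.18-fold. UCK2, which phosphorylates uridine and cytidine, measured 9.34 and 9.57 in mH2A1.2_KO and 9.23 and 9.97 in wild type. The mH2A1.2_KO arrays lay inside the wild type range, with a difference of -0.14 ± 0.27. RRM1 and UCK2 were the 2 probes whose same-numbered arrays differed in opposite directions, with 0.11 and -0.39 for UCK2.

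**Figure D2:**
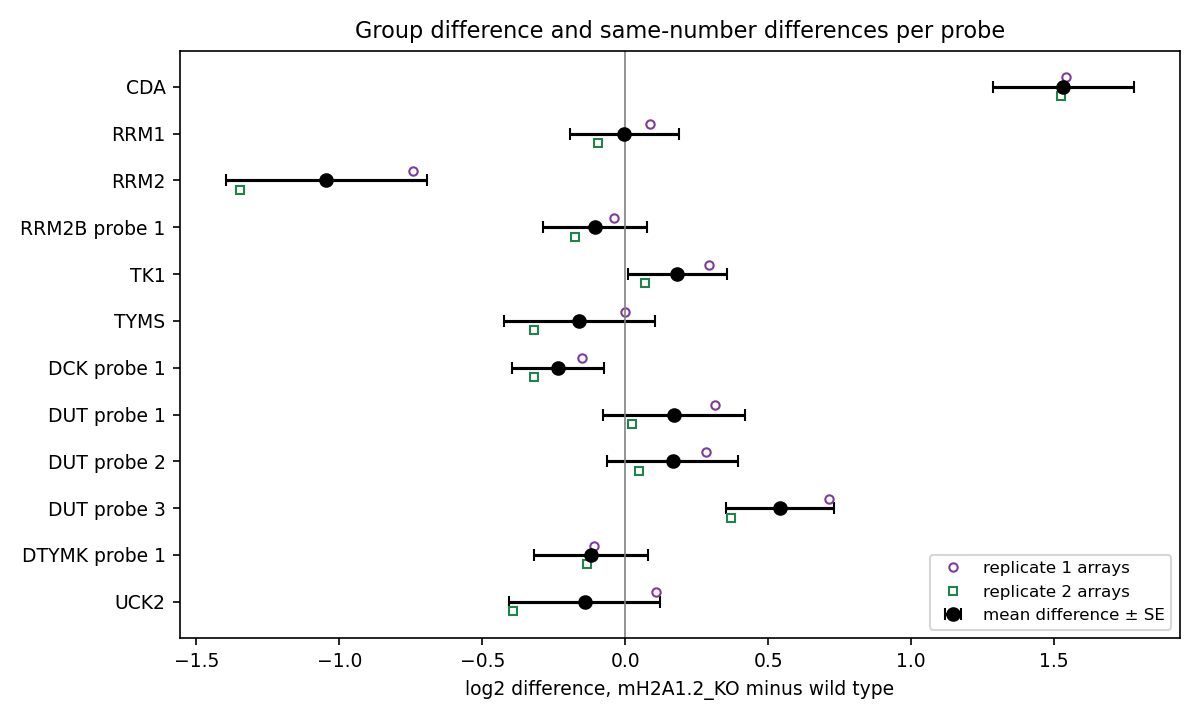
Log2 difference, mH2A1.2_KO minus wild type, of each tested member probe, with black points and bars for the mean difference ± SE and open symbols for the differences between same-numbered arrays. CDA at 1.53 and RRM2 at -1.05 lie farthest from 0, and RRM1 lies at 0.

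The member probes were divided by which array of a group was the higher. In both groups the replicate 2 array was the higher at 8 of the 12 probes, those of RRM1, RRM2, TK1, TYMS, DTYMK, UCK2 and the 2 brighter DUT probes. This was so for 35.5% of all tested probes. At CDA, RRM2B, DCK and the dimmest DUT probe the replicate 1 array was the higher in both groups. Over all tested probes replicate 2 was the higher at 50.4% within mH2A1.2_KO and at 51.5% within wild type. Nothing particular to the members is read from the probes with replicate 1 higher. The wild type arrays stood farther apart than the group means at 8 of the 12 probes and at 64.8% of all tested probes. RRM2 had the widest gap between wild type arrays (1.04), followed by UCK2 (0.73) and TYMS (0.68).

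Of 11 S phase markers (MCM2 to MCM7, PCNA, CDC6, CDC45, CDT1 and GINS2, proteins of replication origins and forks), 10 were also higher on the replicate 2 array in both groups. GINS2 measured 9.96 and 10.49 in mH2A1.2_KO and 9.85 and 10.75 in wild type. Replicate 1 minus replicate 2, averaged over the groups, had a median of -0.30 over the member probes, -0.39 over the S phase markers and -0.02 over all tested probes. Between the groups the S phase markers had a median difference of -0.11, with 3 higher and 8 lower and 0 past the test in either direction. This direction rested on single arrays, since 6 of the 11 were higher once mH2A1.2_KO replicate 1 was left out (median 0.08), and also once wild type replicate 2 was left out (median 0.14). The part of these array differences in the RRM2 value was not tested.

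**Figure D3:**
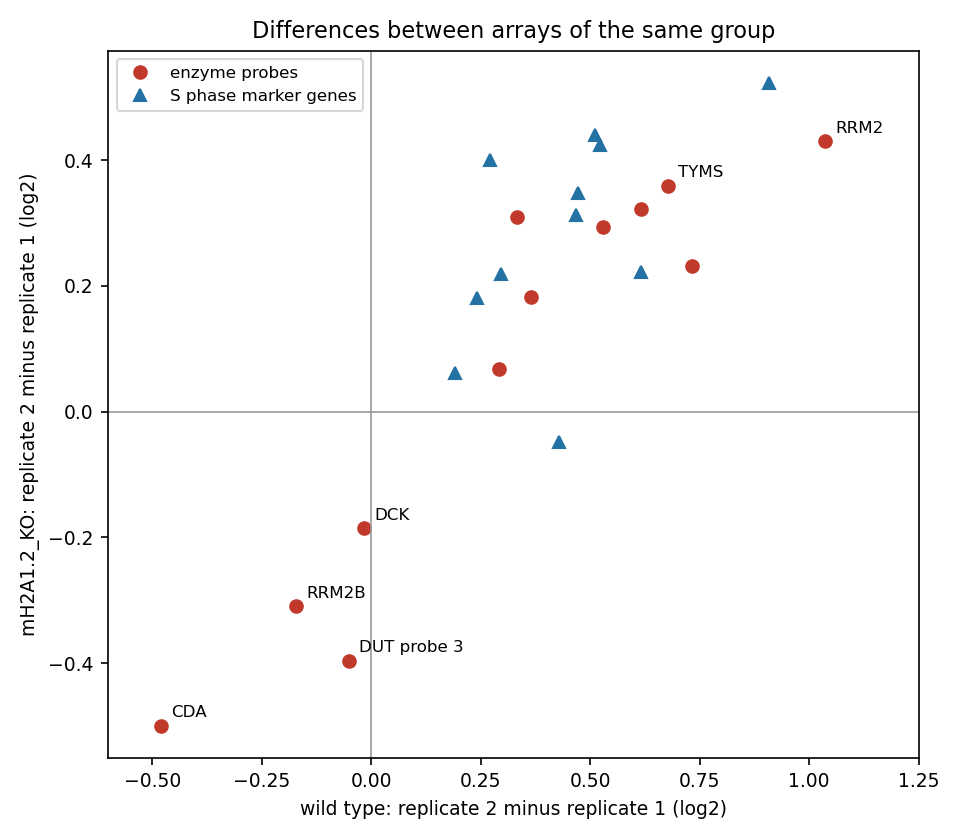
Replicate 2 minus replicate 1 on the log2 scale within mH2A1.2_KO (vertical axis) and within wild type (horizontal axis), with red circles for the 12 member probes and blue triangles for the 11 S phase markers. RRM2, TYMS and 6 other member probes share the upper right of the plot with 10 of the markers, and CDA lies at the lower left.

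Other genes were taken as 7 lists of 87 genes, 5 lists of nucleotide metabolism, 1 of the AID/APOBEC relatives of CDA and 1 of regulators of S phase entry, of which 80 were on the table and 61 had a detected probe. Each gene was read by its detected probe with the highest mean. Of the 61, 19 measured higher and 42 lower in mH2A1.2_KO, with a median difference of -0.08, and 0 passed limma's test in either direction (7 had an unadjusted p under 0.05). Over 10673 named genes read this way 48.3% were higher, 51.7% were lower and the median was -0.01. Groups did not overlap for 5 higher and 14 lower of the 61, or 31.1%, beside 18% higher, 19.2% lower and 37.2% in all over the named genes. Without wild type replicate 2 the number higher was 32, and without wild type replicate 1 it was 12. In the 5 lists of nucleotide metabolism 15 of 47 detected genes were higher and 32 lower, while without wild type replicate 2 these were 25 and 22. Leaving out 1 array turned the sign of the median in the salvage, breakdown and pyrimidine lists.

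In the remaining salvage enzymes and transporters 3 of 12 detected genes measured higher and 9 lower. SLC29A2, an equilibrative nucleoside transporter, measured 9.04 and 8.78 in mH2A1.2_KO and 9.38 and 9.34 in wild type, -0.45 ± 0.17 (adjusted p = 0.616 in limma). UPP1, a uridine phosphorylase, measured -0.50 ± 0.31, and its other probe -0.13. ADK, the adenosine kinase, measured 0.30 ± 0.16, the highest of its 3 detected probes, which ran from 0.06. ADA, the adenosine deaminase, measured -0.25 ± 0.20. The uptake carriers SLC29A1, SLC28A1, SLC28A2 and SLC28A3 were not detected. All 12 differences in this list were smaller in size than that of CDA, but CDA was chosen for its difference, so nothing is read from this.

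Among enzymes that break down or cleanse nucleotides, 4 of 8 measured higher and 4 lower. NUDT1, which hydrolyses oxidised purine triphosphates, measured 9.52 and 9.66 in mH2A1.2_KO and 10.29 and 10.21 in wild type, -0.66 ± 0.16 (adjusted p = 0.421 in limma). Its groups stood well apart, and its second probe was also lower, by -0.32. NT5C2, a cytosolic 5′-nucleotidase, measured 10.47 and 10.24 in mH2A1.2_KO and 9.69 and 9.79 in wild type, 0.61 ± 0.17 (adjusted p = 0.463 in limma). DCTD, the deaminase of dCMP, measured 0.24 ± 0.33 and DCTPP1, a dCTP pyrophosphatase, -0.16 ± 0.18. SAMHD1, which degrades dNTPs, and DPYD, which begins uracil and thymine breakdown, were not detected.

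De novo pyrimidine enzymes and nucleotide kinases split 3 higher and 7 lower by the probe read for each gene. By that probe AK1, an adenylate kinase (0.43 ± 0.18), and CMPK1, the UMP and CMP kinase (-0.31 ± 0.15), differed most. The guanylate kinase GUK1 (0.29 ± 0.15) and DHODH, the mitochondrial dihydroorotate dehydrogenase (-0.28 ± 0.26), came next. NME2 was counted as lower at -0.06 ± 0.19, although its 3 detected probes ran from -0.06 to 0.68. In the folate cycle that feeds TYMS, 1 of 5 was higher and 4 lower. There SHMT1, a serine hydroxymethyltransferase, measured -0.51 ± 0.16, although its 3 probes ran from -0.51 to 0.08. The folate carrier SLC19A1 measured -0.26 ± 0.19, the folate enzyme MTHFD2 -0.20 ± 0.15 and MTHFD1 0.11 ± 0.20. De novo purine enzymes measured higher for 4 and lower for 8 of 12, with a median of -0.14. IMPDH1, which commits IMP to guanine nucleotides, measured -0.38 ± 0.18, PPAT, the first enzyme of the path, -0.35 ± 0.17, ADSS1 0.23 ± 0.31 and IMPDH2 -0.21 ± 0.17.

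The AID/APOBEC proteins are relatives of CDA that deaminate cytosine in nucleic acids. Of the 5 detected, 3 measured higher and 2 lower, with a median of 0.04. APOBEC3G measured 7.32 and 7.19 in mH2A1.2_KO and 6.86 and 6.87 in wild type, 0.39 ± 0.16 (adjusted p = 0.647 in limma), but its second probe differed by 0.01. APOBEC3C measured 0.23 ± 0.19, APOBEC3B -0.17 ± 0.28 and APOBEC3D -0.11 ± 0.16. All 4 differences were smaller in size than that of CDA, from which again nothing is read.

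Regulators of the step from G1 into S phase measured lower for 8 of 9 genes and higher for 1, with a median of -0.17. Without wild type replicate 2, 5 were lower and 4 higher, with a median of -0.0048. CCNE1, the cyclin E1 that drives S phase entry, measured 8.52 and 8.36 in mH2A1.2_KO and 9.15 and 9.06 in wild type, -0.66 ± 0.16 (adjusted p = 0.421 in limma). E2F7, a repressor of E2F targets, measured -0.51 ± 0.24, TFDP1, the partner of E2F factors, -0.32 ± 0.24 and E2F2 -0.23 ± 0.22. Mitosis markers measured higher for 5 of 7, and CDK1 and TOP2A measured -0.08 each, although the other CDK1 probe measured 0.04. Among the higher were CCNB1, cyclin B1 (0.69 ± 0.33), and the proliferation marker MKI67 (0.18 ± 0.25), both with overlapping groups. AURKA, a spindle kinase (0.33 ± 0.18), and the checkpoint kinase BUB1 (0.17 ± 0.16) were higher without overlap. With 1 array left out, from 4 to 6 of the 7 were higher. None of the S phase, G1 or mitosis genes passed the test in the fit by group alone. Of the G1 regulators, CCNE1 passed once a replicate block was added, a pairing that no label states. With the block, calls were listed for members and pathway lists alone, without the S phase and mitosis markers.

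**Figure D4:**
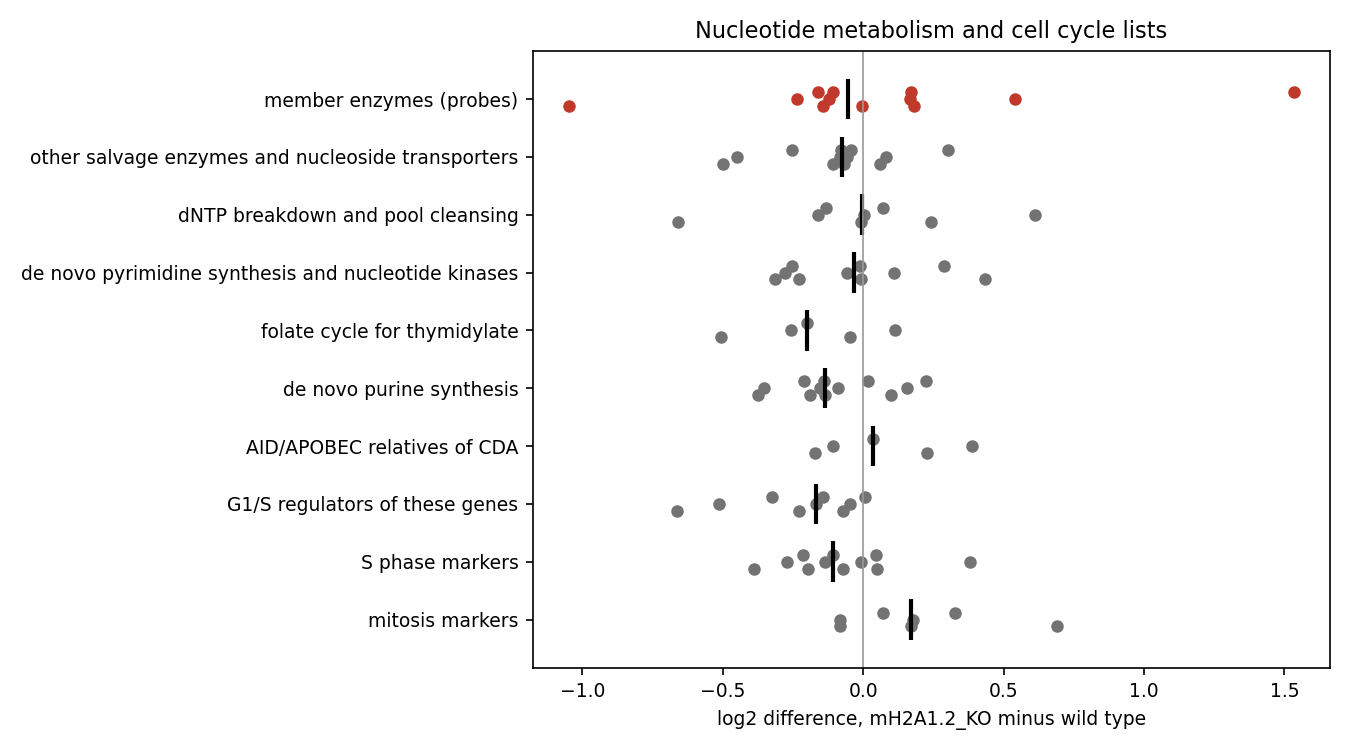
Log2 difference, mH2A1.2_KO minus wild type, with red points for the 12 member probes, grey points for the detected genes of each list and black bars for medians. CDA at 1.53 and RRM2 at -1.05, whose differences chose the set, lie outside the range of the 9 lists drawn. Points of those lists lie between -0.66 and 0.69. The epithelial markers KRT8 (1.68) and KRT19 (1.24) and the depleted gene MACROH2A1 (-1.07) are not drawn.

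The genes closest to CDA and RRM2 in profile were found as the smallest Euclidean distances between log2 values centred over the 4 arrays, among 10672 named genes. For CDA they were SLCO2A1, a prostaglandin transporter (distance 0.21), H2AC20, a core histone (0.24), WWC1, a scaffold of the Hippo pathway (0.27), and H2AC19, also a core histone (0.27). SLCO2A1 measured 9.01 and 8.37 in mH2A1.2_KO and 7.61 and 7.04 in wild type. For RRM2 they were MTMR2, a lipid phosphatase (0.38), ANGPTL4, a secreted inhibitor of lipoprotein lipase (0.40), RBM3, a cold-induced RNA-binding protein (0.47), and TUBB2A, a beta-tubulin (0.49). MTMR2 measured 6.97 and 7.26 in mH2A1.2_KO and 7.72 and 8.29 in wild type. With 4 arrays, likeness of this kind is a description of these values.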

How the data were processed

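Expression in 4 RNA samples was measured on single-colour bead arrays after conversion to biotinylated cRNA, per the labels' protocols, and GenomeStudio is named in the submitters' processing notes. The authors deposited raw intensity for 47230 probes and beside each intensity its detection p-value. The authors also deposited normalized log2 values for 43893 probes, by a method not given in the sources used here. Of these probes 29471 had 1 gene symbol, 0 several and 14422 none.

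Each raw array was matched to the normalized column it followed, over 7303 probes (lowest correlation 0.988, next highest 0.0225). The raw header exchanges wild type replicate 2 and mH2A1.2_KO replicate 1 relative to the normalized table, and its columns run in the order of the array position letters (E, F, G and H) in the sample titles. Groups follow the normalized table, whose columns are named by sample.

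The log2 values were quantile-normalized, filtered at a detection p under 0.01 on at least 2 arrays and fitted per probe with limma 3.58.1 in R 4.3.3 (two-sided, Benjamini-Hochberg over 16950 probes, threshold 0.05, 2 residual and 4.3 prior degrees of freedom). The rule for named genes took every member probe, up to 4 genes per list with the largest differences, and the 4 nearest profiles of CDA and RRM2. Members and lists were chosen with earlier results of these data known. Alternatives were the values as deposited, neqc, other detection filters, the raw header's groups, the 2 arrays that both tables place alike, 1 probe per gene, a replicate block and leaving out each array.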

Additional observations from a re-analysis of the deposited data

How the results depend on the processing

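Of the 13 alternatives 5 (the detection filters, the block and 1 probe per gene) leave a probe's difference as it is by construction. In 7 of the other 8 CDA measured higher in mH2A1.2_KO and RRM2 lower. The exception for both was the raw header's grouping, with -0.49 for CDA and 0.73 for RRM2, which is the split by replicate number. From mH2A1.2_KO replicate 2 and wild type replicate 1 alone, which both tables label the same way, the differences were 1.04 for CDA and -0.31 for RRM2. The median of the member probes was 0.30 under the raw header's groups, 0.33 between those 2 arrays and from -0.16 to 0.20 when 1 array was left out. limma called 5 probes with no detection filter (2 of MUC1, and those of PLAAT4, KRT8 and an unnamed gene, chosen after their values were seen), 647 with the replicate block and from 0 to 211 when 1 array was left out (69 without wild type replicate 1 and 211 without wild type replicate 2). With the replicate block 3 pathway genes passed, NT5C2, NUDT1 and CCNE1, and 0 passed in each fit without 1 array. CDA and RRM2 passed limma's threshold with the block and without wild type replicate 1, and CDA without wild type replicate 2, which supports nothing since they were chosen on this comparison. The sign turned when 1 array was left out for RRM1, RRM2B, TYMS, DTYMK, UCK2 and the 2 brighter DUT probes. Same-numbered arrays deviated together (correlation 0.57 over probes), but no label gives the numbers such a meaning, and 2 pairs are too few to settle it from the data. The number of pathway genes higher ran from 12 to 43. With background modelled by neqc the dimmest DUT probe was the 1 member probe whose difference moved by more than its spread between arrays, to 0.84. Lists of cell cycle and marker genes were recounted without each array after seeing the data.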
